A study of Homo sapiens with 9 samples.

Results

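The genes described here are 10 nuclear genes that make, control or protect mitochondrial RNA, measured in KOPTK1, a human cell line from an acute leukaemia of the T lineage (T-ALL). They are the mitochondrial RNA polymerase POLRMT and its cofactors TFAM, TFB1M, TFB2M and TEFM, the nuclear activators NRF1, GABPA and PPRC1, and the RNA-binding partners LRPPRC and SLIRP. They were chosen by function, and all 10 of the 10 symbols were found among the 17637 genes of the count table and passed the filter on low counts (15309 genes tested).

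Poly(A) RNA was sequenced from 9 libraries in 3 groups of 3. Hairpins were delivered by lentivirus. The shDHX15_MYC cells carried a hairpin against the RNA helicase DHX15 together with the MYC coding region, the shDHX15 cells carried that hairpin alone, and the shControl cells carried a control hairpin, which the table's column names give as one against GFP. Every library is labelled as wild type in genotype and comes from this line, and the columns name a single hairpin number for the DHX15 knockdown. Off-target effects of that hairpin and loss of DHX15 cannot be told apart. The labels do not say whether replicates were separate cultures, so p-values measure the spread between these libraries. MYC was added to knockdown cells only, so its effect is measured against the knockdown and not in control cells. The series states its aim as testing MYC as a target downstream of DHX15.

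Mitochondrial DNA is copied into long RNAs by POLRMT, which needs TFAM to bind and bend the promoter and TFB2M to open it. TEFM keeps the polymerase elongating. TFB1M, a relative of TFB2M, methylates the small ribosomal RNA of mitochondria. LRPPRC and SLIRP form a complex that stabilises mitochondrial messages and favours their polyadenylation. NRF1 and GABPA bind the promoters of many nuclear genes for respiration, and PPRC1, a relative of the coactivator PGC-1α, is a coactivator that growth signals induce.

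Total counts ran from 42134302 to 59688062 per library, and the 10 genes had between 369 and 12599 reads each in a library. DHX15 averaged 195 ± 2.55 CPM (read counts per 1000000, scaled by TMM factors) in shDHX15_MYC, 167 ± 13.8 CPM in shDHX15 and 280.3 ± 3.43 CPM in shControl cells (SD, n = 3), so that the shDHX15_MYC cells held 1.17-fold more DHX15 message than the shDHX15 cells. MYC averaged 7098 ± 153 CPM in shDHX15_MYC, 86.9 ± 3.78 CPM in shDHX15 and 109 ± 0.603 CPM in shControl cells, far above the control level where it was added. The added MYC and the higher DHX15 message of the shDHX15_MYC cells cannot be told apart. Below, "with MYC" names the shDHX15_MYC cells and not a tested cause. Replicate 1 of shDHX15 stood apart from replicates 2 and 3 across genes: chi-square divided by its degrees of freedom was 18.0 and 17.1 for those pairs and 4.45 between replicates 2 and 3. Results that rest on it are given without it as well. All 13 T-cell and T-ALL markers found were above 1 CPM in at least 1 library, and their summed level was 2097 to 2137 CPM in shDHX15_MYC, 3256 to 3445 CPM in shDHX15 and 4003 to 4098 CPM in shControl libraries. Of the 13, 12 were lower in shDHX15_MYC than in shDHX15, against 42.6% of all genes, and 11 were lower and 1 higher in shDHX15 than in shControl, against 23.0% and 22% of all genes. The sum of the B-cell markers CD79A, CD79B, PAX5 and CD22 was 105 to 109 CPM in shDHX15_MYC, 46.1 to 48.4 CPM in shDHX15 and 50.7 to 52.8 CPM in shControl libraries. Most of it was CD79A, at 98.2 to 103 CPM in shDHX15_MYC and 36.4 to 38.5 CPM in shDHX15 libraries (log2 fold change 1.42 by edgeR, adjusted p = 1.65e-15), whereas CD79B was lower with MYC (-0.73, adjusted p = 1.26e-06). PAX5 and CD22 stayed under 1 CPM in every library. PAX5 was at 0.338 to 0.497 CPM in shDHX15_MYC and at most 0.0848 CPM in shDHX15 libraries. It passed the filter on low counts through the shDHX15_MYC libraries, so its difference is given without a test. The sum of 5 myeloid markers was 7.16 to 8.76 CPM in shDHX15_MYC, 0.623 to 0.869 CPM in shDHX15 and 0.708 to 1.31 CPM in shControl libraries. Of the 5, 4 were tested and called higher with added MYC, where 42.1% of all genes were. Markers this low in the other groups may have passed the filter on low counts through shDHX15_MYC, so that count is no test of a rise. The sum of 7 markers of adherent and packaging cells was 36.8 to 37.1 CPM in shDHX15_MYC, 14.1 to 15.1 CPM in shDHX15 and 19.3 to 20.4 CPM in shControl libraries, with COL1A2, COL3A1 and CDH1 under 1 CPM throughout. The sum of 4 erythroid markers stayed under 1 CPM. The part of these markers in the results was not tested, and in bulk RNA a change in the cells present and a change in RNA per cell cannot be told apart.

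Against shControl, the shDHX15 cells showed small changes in both directions. LRPPRC and TFAM were higher, and PPRC1, SLIRP and NRF1 were lower. These 5 of the 10 genes passed an edgeR adjusted p of 0.05, a share near that of all genes tested, of which 45.0% passed (22% higher and 23.0% lower). The same 2 and 3 genes had CPM ranges that did not overlap between the groups, as did 51.1% of all genes (24.4% higher and 26.6% lower). Their median log2 fold change was -0.01, against -0.005 over all genes.

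In shDHX15_MYC against shDHX15, 9 of the 10 passed the same test. TFAM, TFB2M, TEFM, PPRC1, GABPA, LRPPRC and SLIRP were higher in shDHX15_MYC, and TFB1M and NRF1 lower. Of all genes 84.7% passed this test (42.1% higher and 42.6% lower), a near-even split, so 9 of 10 is close to the share of all genes while the calls among the 10 were mostly higher. Ranges did not overlap for 7 genes higher and 2 lower, and for 85.0% of all genes (42.4% higher and 42.6% lower). The median log2 fold change of the 10 genes was 0.45, against 0.006 over all genes. Against shControl, the shDHX15_MYC cells had 6 genes higher and 2 lower, where 84.5% of all genes passed (42% higher and 42.5% lower). Ranges did not overlap for these 6 and 2, and for 87.2% of all genes (43.5% higher and 43.6% lower). The median was 0.47, against 0.017 over all genes. The 3 comparisons share libraries, so their values stand side by side and do not support each other.

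**Figure D1:**
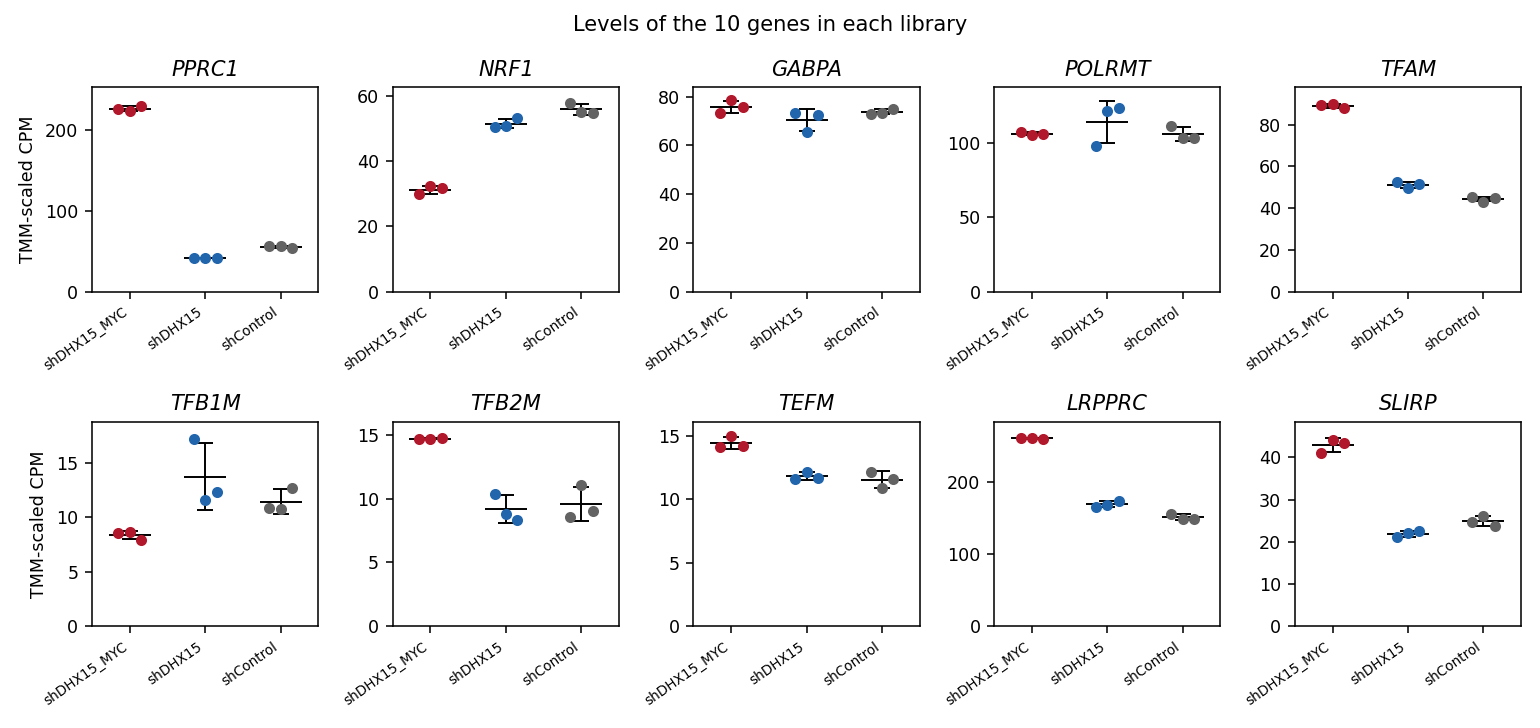
TMM-scaled CPM (y axes, from 0) of each of the 10 genes in the shDHX15_MYC, shDHX15 and shControl libraries (points), with the mean and SD of 3 libraries (black). PPRC1 stands at 224 to 229.7 CPM in shDHX15_MYC and at 42 to 42.2 CPM in shDHX15 libraries, whereas NRF1 and TFB1M are lowest in the shDHX15_MYC libraries.

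Start regions of the genes were searched on both strands for the letters of an E-box (CACGTG, the letters MYC binds best), of an NRF1 site (GCGCA, any base, then GCGC) and of an ETS site as bound by GABP (CCGGAAG), in 250 bases before and 50 after the start (RefSeq, GRCh38.p14). Of the 10 genes, 9 matched an entry, all but NRF1. The E-box was in 0 of the 9, the NRF1 letters in 3 (TFAM, TFB1M and POLRMT) and the ETS letters in 5 (POLRMT, TFB1M, TEFM, SLIRP and GABPA). Over all 27305 genes with an entry these shares were 7.43%, 6.28% and 10.7%, and over the 11421 of them tested here 9.75%, 10.5% and 17.4%. The 3 regions that hold the NRF1 letters are printed because NRF1 itself was lower with MYC while their genes differed from each other, and PPRC1's because it changed most. Capitals mark the motifs, which run into each other in POLRMT where 2 NRF1 matches overlap.
TFAM, chr10:58385160-58385459, plus strand: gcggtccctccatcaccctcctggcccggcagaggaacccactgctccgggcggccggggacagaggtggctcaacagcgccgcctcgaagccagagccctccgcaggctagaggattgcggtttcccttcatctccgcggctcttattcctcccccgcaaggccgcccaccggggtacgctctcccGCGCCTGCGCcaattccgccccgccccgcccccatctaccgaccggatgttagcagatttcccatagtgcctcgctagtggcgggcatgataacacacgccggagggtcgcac
TFB1M, chr6:155314435-155314734, minus strand: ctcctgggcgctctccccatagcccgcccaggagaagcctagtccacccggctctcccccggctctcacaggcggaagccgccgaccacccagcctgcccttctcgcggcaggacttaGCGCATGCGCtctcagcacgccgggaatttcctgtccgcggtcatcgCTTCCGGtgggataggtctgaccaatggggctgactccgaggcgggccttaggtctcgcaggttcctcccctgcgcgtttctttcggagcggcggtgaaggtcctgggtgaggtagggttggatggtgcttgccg
POLRMT, chr19:633488-633787, minus strand: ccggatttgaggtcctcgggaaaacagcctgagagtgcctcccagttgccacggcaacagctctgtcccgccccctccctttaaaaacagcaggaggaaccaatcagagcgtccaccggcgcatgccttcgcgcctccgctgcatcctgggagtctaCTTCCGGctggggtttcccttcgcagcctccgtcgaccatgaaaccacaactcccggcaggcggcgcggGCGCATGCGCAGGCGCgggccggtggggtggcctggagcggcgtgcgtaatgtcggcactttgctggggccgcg
PPRC1, chr10:102132790-102133089, plus strand: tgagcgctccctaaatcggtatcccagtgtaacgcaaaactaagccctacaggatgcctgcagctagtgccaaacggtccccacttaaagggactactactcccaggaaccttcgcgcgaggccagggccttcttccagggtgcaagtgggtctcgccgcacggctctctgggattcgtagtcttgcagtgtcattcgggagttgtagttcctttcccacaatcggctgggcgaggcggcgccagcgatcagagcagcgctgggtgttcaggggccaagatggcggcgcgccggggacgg

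The first base of the NRF1 match lies at -63 in TFAM, -132 in TFB1M and -24 and -18 in POLRMT, and that of the ETS match at -85 in TFB1M and -93 in POLRMT, counted from the start site at 0. TFAM was higher in shDHX15_MYC than in shDHX15, TFB1M lower and POLRMT not called. Such matches describe these windows and show no binding.

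PPRC1 had the largest fold changes of the 10 genes and was lowest in the knockdown. It is found on chromosome 10 between 102132994 and 102150331 (GRCh38, plus strand). Its level was 227, 224 and 229.7 CPM in the shDHX15_MYC libraries, 42, 42.2 and 42.2 CPM in the shDHX15 libraries and 56.5, 56.1 and 53.8 CPM in the shControl libraries. No ranges overlapped between groups. PPRC1 was lower in shDHX15 than in shControl (log2 fold change -0.40, SE 0.0357, edgeR adjusted p = 1.48e-07). With MYC added it was 5.38-fold higher than in shDHX15 (2.43, SE 0.0351, adjusted p = 2.67e-19) and 4.09-fold higher than in shControl (2.03, adjusted p = 1.94e-18). The genes whose 9 log2 CPM values lay nearest to those of PPRC1, each centred on its own mean, were TUBA4A, CKB and MLLT4, at Euclidean distances of 0.162, 0.195 and 0.234 among 10159 genes.

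NRF1 went the other way from PPRC1 when MYC was added. It lies on chromosome 7 at 129611714 to 129757082 (plus strand). NRF1 stood at 29.8, 32.2 and 31.6 CPM in shDHX15_MYC, 50.5, 50.8 and 53.0 CPM in shDHX15 and 57.6, 55.1 and 54.6 CPM in shControl libraries. The shDHX15_MYC libraries were well below all others, and the shDHX15 libraries lay just below the shControl ones. NRF1 was 1.65-fold lower in shDHX15_MYC than in shDHX15 (log2 fold change -0.72 with an SE of 0.0470, edgeR adjusted p = 1.25e-10) and 1.79-fold lower than in shControl (-0.84, SE 0.0471, adjusted p = 1.63e-11). In shDHX15 against shControl it was just past the threshold (-0.12, SE 0.0456, adjusted p = 0.0469), and 10 of 14 alternative settings put it on the other side, with adjusted p from 0.0395 to 0.392. The call was absent with replicate 1 of shDHX15 left out (-0.10, adjusted p = 0.0705), with replicate 2 left out (-0.11, adjusted p = 0.105), and with replicate 1 (-0.09, adjusted p = 0.182), replicate 2 (-0.12, adjusted p = 0.0798) or replicate 3 of shControl left out (-0.13, adjusted p = 0.0638). MRPL16, a protein of the mitochondrial ribosome, ST13, a cochaperone of HSP70, and TCEAL8 had the nearest patterns to NRF1 (distances 0.0665, 0.111 and 0.120).

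GABPA, the DNA-binding subunit of the ETS-family activator GABP, varied little (chromosome 21 at 25734570 to 25772460, plus strand). Its level was 73.5, 78.5 and 75.6 CPM in shDHX15_MYC, 73.3, 65.4 and 72.7 CPM in shDHX15 and 73.1, 73.5 and 75.0 CPM in shControl libraries. It was called higher in shDHX15_MYC than in shDHX15 by 0.11 on the log2 scale (SE 0.0457, edgeR adjusted p = 0.0370), and 5 of 14 alternatives ended that call (adjusted p from 7.18e-06 to 0.172). Among these were the fits without replicate 2 of shDHX15_MYC (0.08, adjusted p = 0.172), without its replicate 3 (0.11, adjusted p = 0.0756) and without replicate 2 of shDHX15 (0.07, adjusted p = 0.159). Against shControl, shDHX15_MYC did not pass (0.04, adjusted p = 0.442) except with total counts (0.30, adjusted p = 9.3e-06) or TMM factors from higher genes only, those of at least 3 mean log2 CPM (0.25, adjusted p = 6.75e-05). Nor did shDHX15 (-0.07, adjusted p = 0.236), although without replicate 1 of shDHX15 it gave -0.10 (adjusted p = 0.0475; up to 0.963 over the alternatives). The share of GABPA's 100-base transcript windows found at another locus, the pseudogene GABPAP, was 0.114, the highest of the 10 genes. Exons of GABPA also overlap those of ATP5PF on the opposite strand over 7.61% of their length. The use of strand in the counting is not given in the sources used here, so reads of these genes may have been split or mixed.

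**Figure D2:**
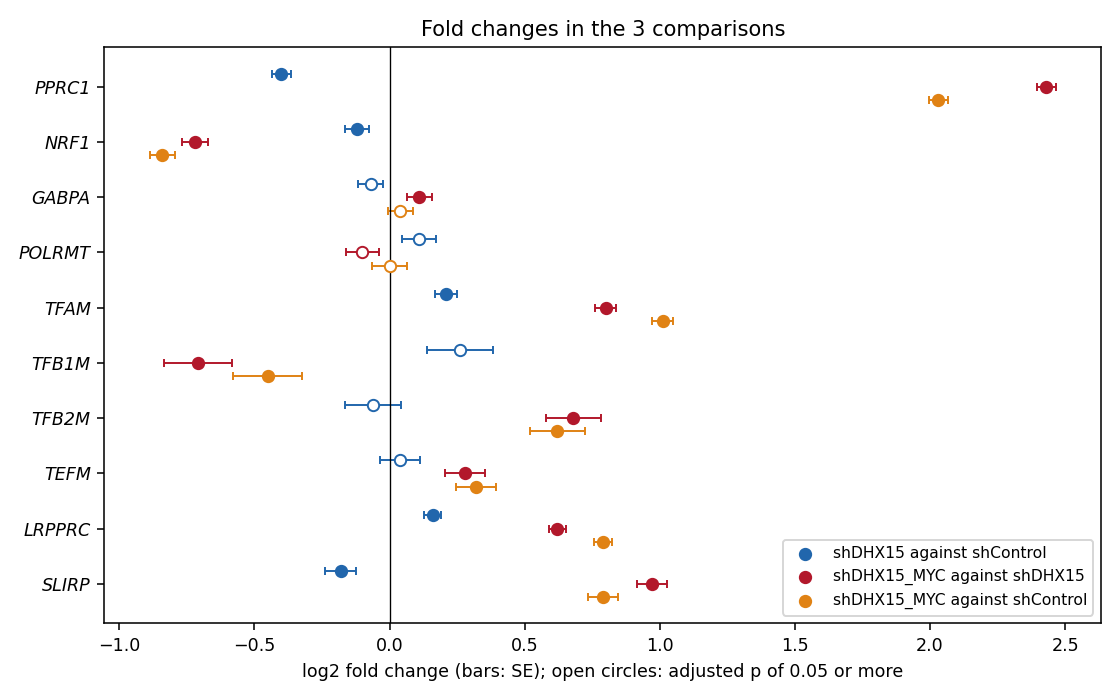
log2 fold changes (x axis) with their SE (bars) for the 10 genes (y axis) in the 3 comparisons, with filled circles for an edgeR adjusted p under 0.05 and open circles otherwise. PPRC1 lies farthest to the right, at 2.43 and 2.03 with MYC added, and NRF1 and TFB1M lie to the left in both comparisons with MYC added.

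Of the components of the transcription machinery, TFAM rose most. TFAM, which also packages mitochondrial DNA, lies on chromosome 10 at 58385022 to 58399221 (plus strand). It had 89.3, 89.9 and 87.9 CPM in shDHX15_MYC, 52.5, 49.6 and 51.4 CPM in shDHX15 and 45.2, 43.1 and 44.7 CPM in shControl libraries, with no overlap between groups. TFAM was 1.15-fold higher in shDHX15 than in shControl (log2 fold change 0.21, SE 0.0409, edgeR adjusted p = 5.50e-04). With MYC added it was higher again, 1.74-fold over shDHX15 (0.80, SE 0.0397, adjusted p = 2.83e-12) and 2.01-fold over shControl (1.01, SE 0.0403, adjusted p = 1.49e-13).

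POLRMT, the polymerase itself, was not called in any of the 3 comparisons (chromosome 19 at 617224 to 633604, minus strand). It had 107, 105 and 106 CPM in shDHX15_MYC, 97.8, 121 and 123 CPM in shDHX15 and 111, 103 and 103 CPM in shControl libraries. The shDHX15 libraries spanned the range of both other groups, with replicate 1 the lowest of all 9 libraries. The log2 fold changes were 0.11 in shDHX15 against shControl (SE 0.0628, edgeR adjusted p = 0.180), -0.10 in shDHX15_MYC against shDHX15 (SE 0.0626, adjusted p = 0.129) and 0.00 in shDHX15_MYC against shControl (SE 0.0630, adjusted p = 0.967). Without replicate 1 of shDHX15, POLRMT was called higher in shDHX15 than in shControl (0.20, adjusted p = 2.52e-06; up to 0.554 over the alternatives, with 0.0309 under total counts) and lower in shDHX15_MYC than in shDHX15 (-0.21, adjusted p = 4.24e-07; up to 0.512). In shDHX15_MYC against shControl it was called higher with total counts (0.27, adjusted p = 7.86e-04) and with TMM factors from higher genes (0.22, adjusted p = 0.00482). A share of 0.0393 of its windows is also found in the pseudogene POLRMTP1.

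The related genes TFB2M and TFB1M moved in opposite directions with MYC. TFB2M (chromosome 1 at 246540560 to 246566324, minus strand) had 14.7, 14.7 and 14.8 CPM in shDHX15_MYC, 10.4, 8.84 and 8.31 CPM in shDHX15 and 8.58, 11.1 and 9.04 CPM in shControl libraries. It was 1.6-fold higher in shDHX15_MYC than in shDHX15 (log2 fold change 0.68 with an SE of 0.101, edgeR adjusted p = 7.12e-06) and 1.54-fold higher than in shControl (0.62, SE 0.102, adjusted p = 2.29e-05), and shDHX15 and shControl overlapped (-0.06, adjusted p = 0.668). TFB1M (chromosome 6 at 155257509 to 155314493, minus strand) had 8.50, 8.67 and 7.90 CPM in shDHX15_MYC, 17.2, 11.6 and 12.3 CPM in shDHX15 and 10.8, 10.7 and 12.7 CPM in shControl libraries. All 3 shDHX15_MYC libraries were below every other library. TFB1M was 1.64-fold lower in shDHX15_MYC than in shDHX15 (-0.71, SE 0.126, adjusted p = 4.96e-05) and 1.37-fold lower than in shControl (-0.45, SE 0.128, adjusted p = 0.00356). The call against shControl ended with total counts (-0.19, adjusted p = 0.184) and with TMM factors from higher genes (-0.24, adjusted p = 0.0918). Without replicate 1 of shDHX15, which held the highest value, the change against shDHX15 was -0.52 (adjusted p = 4.58e-06; 1.36e-06 to 0.00116 over the alternatives). TFB1M did not pass in shDHX15 against shControl (0.26, SE 0.123, adjusted p = 0.0972), where the value without replicate 1 of shDHX15 was 0.06 (adjusted p = 0.603). It was called there under 3 of 14 alternatives, with total counts (0.33, adjusted p = 0.0389), without replicate 2 of shDHX15 (0.37, adjusted p = 0.0262) and without replicate 3 (0.33, adjusted p = 0.0468; 0.0262 to 0.603 over all). Exons of TIAM2 overlap those of TFB1M on the opposite strand over 7.86% of their length.

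TEFM, the elongation factor, rose slightly with MYC (chromosome 17 at 30897336 to 30906820, minus strand). It had 14.1, 15 and 14.2 CPM in shDHX15_MYC, 11.6, 12.2 and 11.7 CPM in shDHX15 and 12.2, 10.9 and 11.6 CPM in shControl libraries. TEFM was 1.22-fold higher in shDHX15_MYC than in shDHX15 (log2 fold change 0.28 with an SE of 0.0731, edgeR adjusted p = 0.00177) and higher than in shControl (0.32, SE 0.0740, adjusted p = 7.01e-04), and shDHX15 and shControl overlapped (0.04, adjusted p = 0.715). Exons of ADAP2 overlap those of TEFM on the opposite strand over 9.34% of their length, and those of the antisense gene AC130324.3 over 16.8%.

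The partners LRPPRC and SLIRP moved apart in the knockdown and rose together with MYC. LRPPRC (chromosome 2 at 43886508 to 43996005, minus strand) had 262, 261 and 259.8 CPM in shDHX15_MYC, 166, 168 and 174 CPM in shDHX15 and 156, 149 and 149 CPM in shControl libraries. SLIRP (chromosome 14 at 77708071 to 77761104, plus strand) had 41.0, 44.2 and 43.4 CPM in shDHX15_MYC, 21.1, 22 and 22.5 CPM in shDHX15 and 24.8, 26.1 and 23.7 CPM in shControl libraries. For both genes the 3 groups were separate, with LRPPRC lowest in shControl and SLIRP lowest in shDHX15. In shDHX15 against shControl, LRPPRC was 1.12-fold higher (log2 fold change 0.16 with an SE of 0.0317, edgeR adjusted p = 4.30e-04) and SLIRP 1.14-fold lower (-0.18, SE 0.0573, adjusted p = 0.0146). Leaving out replicate 2 of shControl ended the SLIRP call (-0.15, adjusted p = 0.0794), as did total-count scaling (-0.12, adjusted p = 0.102; 0.0105 to 0.102 over the alternatives). In shDHX15_MYC against shDHX15, LRPPRC was 1.54-fold higher (0.62, SE 0.0314, adjusted p = 3.45e-12) and SLIRP 1.96-fold higher (0.97, SE 0.0557, adjusted p = 2.13e-11). Against shControl the shDHX15_MYC cells had 1.73-fold more LRPPRC and 1.72-fold more SLIRP (0.79 on the log2 scale for each, adjusted p = 1.52e-13 and 4.16e-10). Exons of SNW1 on the opposite strand overlap 4.48% of SLIRP's exon length, and those of C14orf178 on the same strand 10.5%.

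Ratios of partner genes within a library do not depend on the scaling between libraries. They are ratios of read counts, not of molecules, and with 3 libraries against 3 the exact 2-sided permutation test cannot give a p below 0.1. SLIRP over LRPPRC was 0.156, 0.169 and 0.167 in shDHX15_MYC, 0.127, 0.130 and 0.129 in shDHX15 and 0.159, 0.175 and 0.159 in shControl libraries. The shDHX15 libraries were below both other groups, which overlapped each other: the log2 difference was -0.35 in shDHX15 against shControl and 0.35 in shDHX15_MYC against shDHX15 (exact permutation p = 0.1 for each; 0.15 adjusted over 12 ratio tests). TFB2M over TFB1M was 1.72, 1.69 and 1.87 in shDHX15_MYC, 0.603, 0.762 and 0.675 in shDHX15 and 0.793, 1.04 and 0.711 in shControl libraries. This ratio was 2.60-fold higher in shDHX15_MYC than in shDHX15 and 2.11-fold higher than in shControl (exact permutation p = 0.1, adjusted 0.15), while shDHX15 and shControl overlapped (p = 0.2 in the exact test). TFAM over POLRMT was 0.831 to 0.857 in shDHX15_MYC, 0.411 to 0.537 in shDHX15 and 0.407 to 0.435 in shControl libraries. TEFM over POLRMT was 0.132 to 0.143 in shDHX15_MYC, 0.0955 to 0.119 in shDHX15 and 0.106 to 0.113 in shControl libraries. Both were higher in every shDHX15_MYC library than in any other (exact permutation p = 0.1, adjusted 0.15, against each of the other groups), and did not separate shDHX15 from shControl (p = 0.6 in the exact test for each). For TEFM over POLRMT that overlap rested on replicate 1 of shDHX15, at 0.119. Replicates 2 and 3, at 0.101 and 0.0955, were below every shControl library. The log2 difference was -0.06 with replicate 1 and -0.15 without it.

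**Figure D3:**
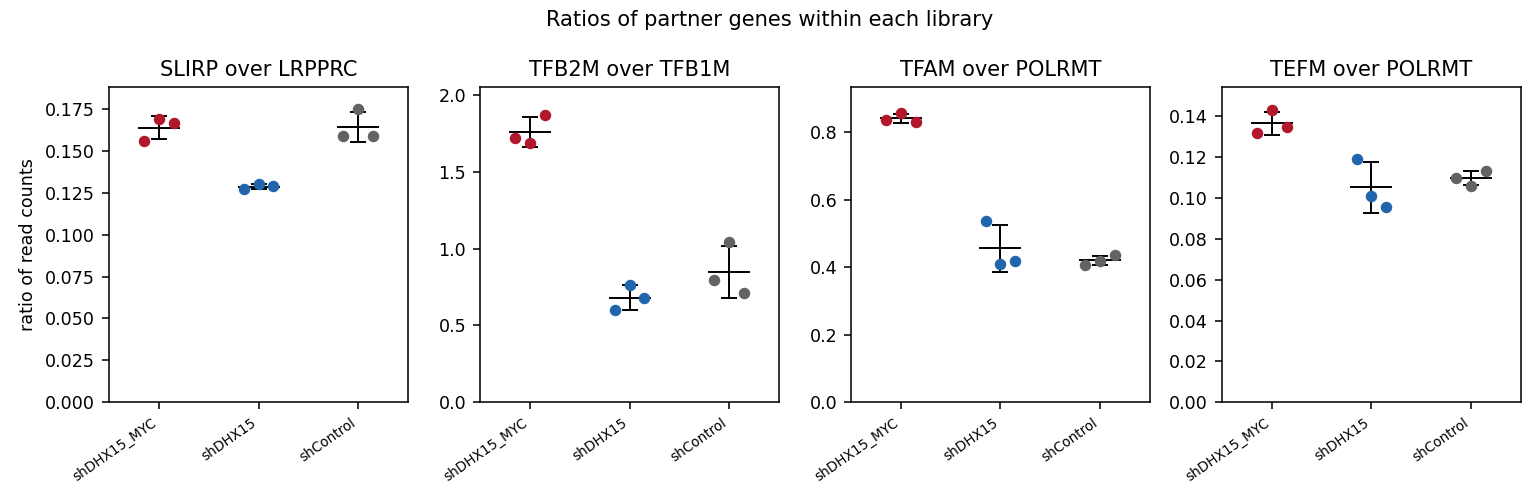
Ratios of read counts (y axes, from 0) of 4 pairs of genes in each library (points), with the mean and SD of 3 libraries (black), for shDHX15_MYC, shDHX15 and shControl. SLIRP over LRPPRC is 0.127 to 0.130 in the shDHX15 libraries and at least 0.156 in the others, and TFB2M over TFB1M is 1.69 to 1.87 in the shDHX15_MYC libraries and at most 1.04 in the others.

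Levels of different genes were compared per kilobase of their principal transcript (APPRIS, GENCODE v29). In shDHX15_MYC cells the order of mean levels was SLIRP (105 ± 4.02 CPM per kilobase, SD), PPRC1 (42.6 ± 0.543), LRPPRC (41.2 ± 0.204), POLRMT (27.6 ± 0.253), TFAM (16.4 ± 0.192), GABPA (14.8 ± 0.496), NRF1 (8.84 ± 0.348), TFB2M (7.96 ± 0.0311), TEFM (7.64 ± 0.249) and TFB1M (5.87 ± 0.284), and no neighbours overlapped. In shDHX15 cells it was SLIRP (53.6 ± 1.68), POLRMT (29.7 ± 3.62), LRPPRC (26.8 ± 0.640), NRF1 (14.6 ± 0.389), GABPA (13.8 ± 0.860), TFB1M (9.64 ± 2.16), TFAM (9.46 ± 0.269), PPRC1 (7.90 ± 0.0276), TEFM (6.28 ± 0.172) and TFB2M (4.97 ± 0.588). In shControl cells it was SLIRP (60.9 ± 3.04), POLRMT (27.5 ± 1.24), LRPPRC (23.9 ± 0.628), NRF1 (15.8 ± 0.454), GABPA (14.4 ± 0.201), PPRC1 (10.4 ± 0.275), TFAM (8.19 ± 0.203), TFB1M (8.02 ± 0.782), TEFM (6.12 ± 0.344) and TFB2M (5.19 ± 0.737). PPRC1 thus stood at rank 2 in shDHX15_MYC, rank 8 in shDHX15 and rank 6 in shControl cells, and TFB1M at ranks 10, 6 and 8. In shDHX15, the ranges of POLRMT and LRPPRC overlapped, as did those of NRF1 and GABPA, and of TFB1M and TFAM. In shControl, TFAM and TFB1M overlapped, as did TEFM and TFB2M. SLIRP's first place rests on its principal transcript of 408 bases. Over its merged exons (2631 bases) it ranked 4 in shDHX15_MYC, 6 in shDHX15 and 5 in shControl. Ranks of the others also depend on the length used: over merged exons PPRC1 ranked 1, 7 and 6 in these groups, and TFB1M 10, 8 and 9.

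The 13 protein-coding genes of mitochondrial DNA, which POLRMT transcribes and whose messages LRPPRC and SLIRP stabilise, were counted as well. They took 6.59% to 6.66% of counts in shDHX15_MYC, 3.67% to 3.87% in shDHX15 and 3.87% to 3.99% in shControl libraries. In shDHX15 against shControl, 11 of 13 were lower and 1 higher, against 23.0% and 22% of all genes (median log2 fold change -0.15; 12 lower without replicate 1 of shDHX15, and 8 with total counts). MT-ATP8 changed by -0.27 on the log2 scale (edgeR adjusted p = 1.98e-06), and MT-ND3 and MT-ATP6 by -0.34 and -0.33. With MYC added, 11 of 13 were higher than in shDHX15 and 0 lower, against 42.1% and 42.6% of all genes (median 0.95). The increase was uneven. MT-ND1, a subunit of complex I, averaged 2533 ± 44.1 CPM in shDHX15_MYC and 593 ± 15.6 CPM in shDHX15 (2.10, edgeR adjusted p = 1.18e-19), MT-ATP8 rose by 1.87, MT-ATP6 by 1.53 and MT-CYB by 1.13. MT-CO1 and MT-CO2, subunits of complex IV named here after their values were seen, changed by 0.01 and -0.01 (adjusted p = 0.570 and 0.660), whereas with total counts all 13 passed as higher. The libraries were poly(A)-selected, and the tails of mitochondrial messages were not measured. The 13 genes are copied together into long RNAs, so their calls are not independent. How reads shared by overlapping genes were counted is not given in the sources used here. Shares of windows found in nuclear copies were 0.316 for MT-ND2, 0.276 for MT-CO1, 0.111 for MT-ND1, 0.0833 for MT-ATP6 and 0 for the other 9.

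Among other factors that process mitochondrial RNA, more rose than fell with MYC. Of 37 genes for processing, modification and decay of mitochondrial RNA, 23 were higher and 9 lower in shDHX15_MYC than in shDHX15, against 42.1% and 42.6% of all genes (median 0.44; 25 and 5 with total counts). SUPV3L1 and PNPT1, the helicase and the exonuclease of the mitochondrial degradosome, rose by 1.81 and 1.48 on the log2 scale (edgeR adjusted p = 8.14e-16 and 3.32e-14). ERAL1, which acts in assembly of the small mitochondrial ribosomal subunit, rose by 1.26, and HSD17B10, a subunit of the mitochondrial RNase P, by 1.39. GRSF1, which binds mitochondrial RNA in granules, was lower (-0.51, adjusted p = 3.88e-10). In shDHX15 against shControl, 20 of the 37 were lower and 3 higher, against 23.0% and 22% of all genes (median -0.11; 11 and 5 with total counts). Among those lower were HSD17B10 at 31.7 ± 2.66 CPM in shDHX15 and 44.0 ± 2.16 CPM in shControl (-0.47, edgeR adjusted p = 6.04e-06), TRUB2 (-0.40), NGRN (-0.26) and TBRG4 (-0.26).

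Of 23 genes for copying and maintenance of mitochondrial DNA, 13 were higher and 9 lower in shDHX15_MYC than in shDHX15, where 42.1% of all genes were higher and 42.6% lower (median 0.20; 15 and 7 with total counts). TWNK, the mitochondrial replicative helicase, listed as C10orf2, averaged 116 ± 0.385 CPM in shDHX15_MYC and 25.3 ± 1.46 CPM in shDHX15 (log2 fold change 2.2, edgeR adjusted p = 8.11e-17). POLG and POLG2, the subunits of the mitochondrial DNA polymerase, were lower (-0.89 and -1.27, adjusted p = 1.81e-12 and 7.49e-14), as was the topoisomerase TOP1MT (-1.48, adjusted p = 9.08e-16). In shDHX15 against shControl, 5 of the 23 were higher and 9 lower, against 22% and 23.0% of all genes (6 and 4 of the 23 with total counts), with DGUOK, the mitochondrial deoxyguanosine kinase, at -0.51 (adjusted p = 1.99e-07) and the nucleotide carrier SLC25A36 at 0.44 (adjusted p = 3.38e-06). TWNK (-0.34) and SSBP1 (-0.26), the mitochondrial single-stranded DNA binding protein, were also lower there.

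Of 14 further activators and coactivators, 5 were higher and 6 lower in shDHX15_MYC than in shDHX15, where 84.7% of all genes were called (median 0.05; 8 and 5 with total counts), and 4 were higher and 4 lower in shDHX15 than in shControl, where 45.0% were (median -0.08; 5 and 2 with total counts). HCFC1, a cofactor that GABP binds, rose by 0.88 with MYC (edgeR adjusted p = 4.10e-12), and SP1, E2F1 and the thyroid hormone receptor THRA were lower (-0.83, -0.65 and -1.76). YY1, CREB1 and THRA were higher in shDHX15 than in shControl (0.26, 0.32 and 0.34). GABPB2, a partner of GABPA, averaged 38.4 ± 0.952 CPM in shDHX15_MYC, 26.0 ± 0.508 CPM in shDHX15 and 39.7 ± 1.96 CPM in shControl cells. It was lower in shDHX15 than in shControl (-0.61, adjusted p = 7.18e-08) and higher in shDHX15_MYC than in shDHX15 (0.56, adjusted p = 1.41e-08). PERM1 and ESRRG, named after their values were seen, averaged 1.11 ± 0.170 and 0.380 ± 0.118 CPM in shDHX15_MYC, against 0.0628 ± 0.0624 and 0.0280 ± 0.0243 CPM in shDHX15 cells, whose libraries reach 3 counts at 0.0519 to 0.0636 CPM. Both are among the 5 called higher but passed the filter on low counts through shDHX15_MYC, so their calls are no test of a rise. With that group left out, 12 of the list were tested. GABPB1, another partner of GABPA, did not pass in shDHX15 against shControl (0.06) or in shDHX15_MYC against shDHX15 (0.01). PPARGC1B, a relative of PPRC1, was at 18.9 ± 1.01, 16.7 ± 0.698 and 18.6 ± 2.39 CPM in shDHX15_MYC, shDHX15 and shControl cells (adjusted p = 0.151 in shDHX15 against shControl and 0.0541 in shDHX15_MYC against shDHX15).

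**Figure D4:**
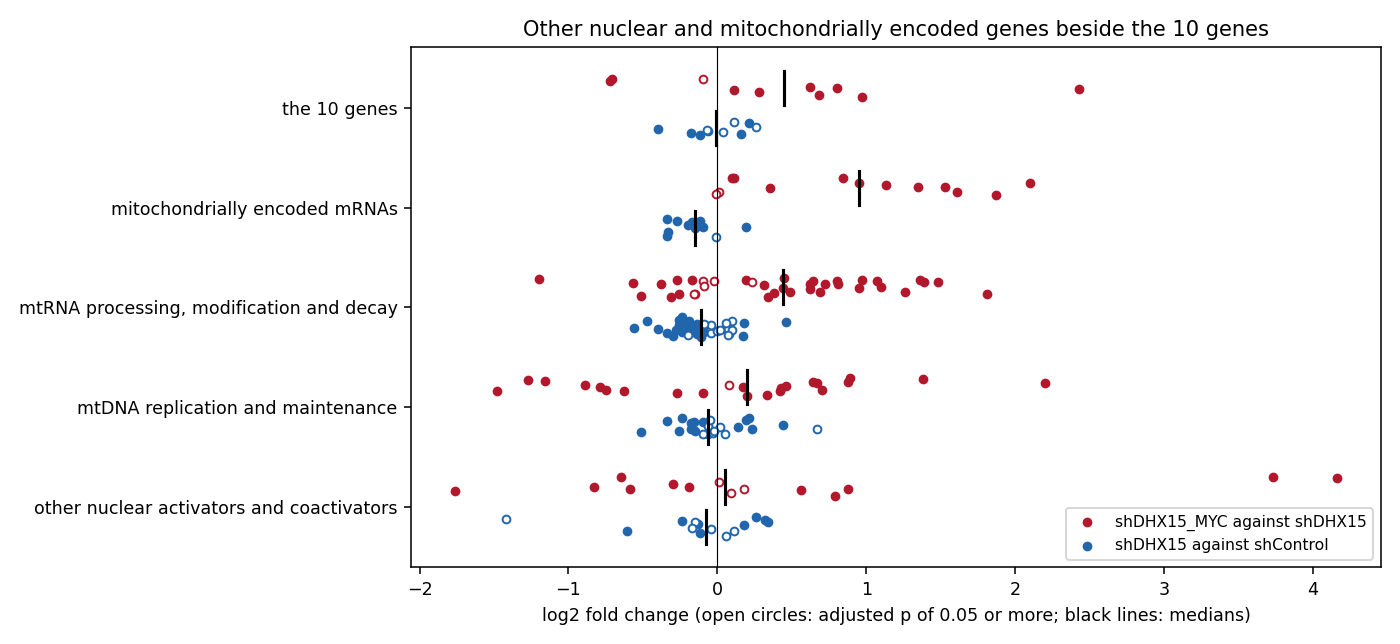
log2 fold changes (x axis) of the 10 genes and of 4 further lists (y axis), with shDHX15_MYC against shDHX15 in the upper row of each pair and shDHX15 against shControl in the lower row; filled circles passed an edgeR adjusted p of 0.05 and black lines are medians. The mitochondrially encoded genes have a median of 0.95 with MYC added, and the list for copying and maintenance of mitochondrial DNA spans -1.48 to 2.2 there. The 2 points farthest right are PERM1 and ESRRG, which are near the limit of detection in shDHX15.

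Changes with MYC depend in part on how libraries were made comparable. With total counts in place of TMM factors, the median log2 fold change of all genes was 0.20 in shDHX15_MYC against shDHX15 and 0.28 in shDHX15_MYC against shControl, where TMM gave 0.006 and 0.017. The split of calls over all genes was then 7679 higher and 5348 lower in shDHX15_MYC against shDHX15 (6438 and 6528 with TMM), 8128 and 4893 in shDHX15_MYC against shControl (6437 and 6502), and 4576 and 2568 in shDHX15 against shControl (3362 and 3524). TMM factors from genes of at least 3 mean log2 CPM gave medians of 0.20 against shDHX15 and 0.23 against shControl for shDHX15_MYC. The median near 0 under TMM thus depends on the genes used for the factors. Set against the median under total counts, the log2 changes in shDHX15_MYC against shDHX15 were 2.42 for PPRC1, 0.96 for SLIRP, 0.79 for TFAM, 0.67 for TFB2M, 0.62 for LRPPRC, 0.28 for TEFM, 0.10 for GABPA, -0.11 for POLRMT, -0.72 for TFB1M and -0.73 for NRF1. A scaling factor moves every gene by the same amount, so these differences from the median are the same under TMM and are no further check. Without subtracting the median, POLRMT was at 0.09 under total counts, above 0 where TMM put it below, and did not pass the test in either.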

How the data were processed

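Poly(A) libraries of KOPTK1 cells were sequenced as paired reads of 150 bases, per the labels' protocols. Build hg38 and the tools HISAT2 2.2.1, FastQC 0.11.9 and DESeq2 1.32.0 are listed in the submitters' processing notes. For the counting program, strand setting and annotation, the sources used here give no name. The authors deposited whole-number read counts per gene, unscaled (17637 genes, 9 libraries). Columns named for GFP were taken as shControl, and those named for a numbered hairpin, without or with MYC, as shDHX15 and shDHX15_MYC.

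Genes kept by filterByExpr (15309) were scaled by TMM and fitted with edgeR 4.0.16 (R 4.3.3) quasi-likelihood, with 1 mean per group over 9 libraries. P-values are 2-sided and adjusted over all 15309 genes by Benjamini and Hochberg, with 0.05 as threshold. The procedure was also run on simulated counts in which few genes changed. That run cannot check the scaling in comparisons where most genes were called. Ratios used an exact permutation test (SciPy 1.17.1). The labels do not say that a replicate number marks a shared culture or day, so libraries were not paired. Deviations from group means had r from -0.0917 to 0.0979 across genes in libraries of the same number, and from -0.102 to 0.0966 in those of different number. These values cannot show whether cultures were shared. A total of 3 counts, the limit a count of 0 allows, corresponds to 0.0519 to 0.0708 TMM-scaled CPM, which covers counting error only. Symbols were matched to GENCODE v29 (94.9% matched). The 10 genes, the 4 further lists, the motifs and the tests were chosen with earlier results of these data known. Named genes are the 10, DHX15 and MYC, up to 4 per list with the smallest adjusted p in a comparison, and the 3 nearest patterns to the 10 genes' highest and lowest changes with MYC; others that the text names were chosen after their values were seen. Alternatives were other scalings, no filter, DESeq2 1.42.0, fits on 2 groups, a replicate block, leaving out each library, and a fit on genes with under 0.2 of their 100-base windows found elsewhere.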

Additional observations from a re-analysis of the deposited data

How the results depend on the processing

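Each of the 10 genes was recomputed under 14 alternatives per comparison. In shDHX15_MYC against shDHX15 the calls of PPRC1, TFAM, SLIRP, LRPPRC, TFB2M, TEFM, TFB1M and NRF1 held under all 14, and in shDHX15_MYC against shControl those of PPRC1, TFAM, SLIRP, LRPPRC, TFB2M, TEFM and NRF1 did. TFB1M was not called lower there with total counts (-0.19, adjusted p = 0.184) or with TMM factors from genes of at least 3 mean log2 CPM (-0.24, adjusted p = 0.0918), so that 1 gene was called lower under each; both settings called POLRMT (0.27 and 0.22) and GABPA (0.30 and 0.25) higher. In shDHX15 against shControl, PPRC1, TFAM and LRPPRC kept their calls under all 14. Total counts gave 4 genes higher and 1 lower there in place of 2 and 3, and leaving out a library gave 3 to 6 called genes, with 1 to 3 lower (3 and 1 without replicate 2 of shControl). Signs turned for genes that were not called: POLRMT in shDHX15_MYC against shDHX15 was 0.09 with total counts and 0.09 with TMM factors from the higher genes. POLRMT in shDHX15_MYC against shControl was -0.01 with no filter, -0.01 on genes without shared sequence and -0.03 to 0.03 leaving out a library. TFB2M in shDHX15 against shControl was 0.01 with total counts and -0.16 to 0.06 leaving out a library, and TEFM 0.00 to 0.08. Among log2 ratio differences, leaving out a library moved TFAM over POLRMT in shDHX15 against shControl to between -0.02 (without replicate 1 of shDHX15) and 0.18, TEFM over POLRMT to between -0.15 (also without replicate 1 of shDHX15) and 0.01, and SLIRP over LRPPRC in shDHX15_MYC against shControl to between -0.02 and 0.05. The cause was not tested in any of these. With the replicate block, 4, 9 and 8 of the 10 genes were called in shDHX15 against shControl, shDHX15_MYC against shDHX15 and shDHX15_MYC against shControl, in place of 5, 9 and 8; NRF1 was the call lost in the first (-0.12, adjusted p = 0.0625). The labels do not say what the replicate numbers mark, so they were not taken as pairs. Correlations were near 0 for libraries of the same number and of different numbers. TFB1M, TFB2M and TEFM, with 369 to 829 reads per library, are the least precise of the 10.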
